A study of Homo sapiens with 4 samples.

Results

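The genes described are those of the epidermal growth factor (EGF) receptor system: the receptor genes EGFR and ERBB2, the ligand genes EREG, HBEGF, TGFA, AREG, BTC, EPGN and NRG1, and ERRFI1, which encodes an intracellular inhibitor of the receptors. They were chosen by name, and a gene was measured by the brightest probeset (by its mean over the 4 arrays) whose platform annotation names that gene alone. Of the 10 genes, among 22465 named genes in all, 8 had such a probeset. AREG, the amphiregulin gene, had none in the annotation used here, and the one probeset that names ERBB2 also names MIR4728, a microRNA gene inside it, so neither AREG nor ERBB2 is given a value. Of the 8, BTC and EPGN lay below the signal cutoff of 4.035, the median log2 signal over all probesets, which left 6 among 14418 kept genes.

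The arrays came from SUM159 and MDA-MB-231, established lines of triple-negative breast cancer, a class defined by low oestrogen, progesterone and HER2 receptors. All 4 cultures carried a lentiviral plasmid with inducible miR-100 and were, per the series' design text, selected with puromycin. The groups, of 1 array each, were SUM159 with miR-100 induced for 1 week, SUM159 without the inducing drug, MDA-MB-231 with miR-100 induced for 1 week and MDA-MB-231 without the drug. The drug is called doxy in the sample labels and tetracycline in the treatment text. The cell line of the SUM159 samples appears as SUM149 in the design text, and the samples' own label is used here. No array shows the drug in cells without the plasmid, so the drug and miR-100 cannot be told apart. SUM159 was grown in Ham's F12 with hydrocortisone and insulin and MDA-MB-231 in DMEM without them, per the growth protocol, so line and medium cannot be told apart either.

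The receptors of this family sit in the cell membrane as tyrosine kinases and pair when a ligand binds. Most of the ligands are made as membrane-anchored precursors and are released by ADAM proteases. EGFR binds epiregulin (EREG), heparin-binding EGF-like growth factor (HBEGF), transforming growth factor alpha (TGFA), amphiregulin, betacellulin (BTC) and epigen (EPGN), whereas neuregulin 1 (NRG1) binds ERBB3 and ERBB4. Active receptors signal through RAS and ERK and through PI3K and AKT, and ERRFI1 (MIG6), itself a transcript that rises with ERK activity in many cells, binds the kinase domain and limits it. Triple-negative lines often carry much EGFR and little ERBB2 or ERBB3.

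The induced microRNA and the promoters of the 2 members past 1.5-fold in SUM159 are shown first. The promoters are the start regions of the members that differed most between induced and control cells of that line. The signals below do not depend on these sequences. The mature microRNA is given from RefSeq (GRCh38.p14, chr11:122152275-122152296, minus strand), with its seed, bases 2 to 8, in capitals; hsa-miR-99a-5p and hsa-miR-99b-5p share this seed.
hsa-miR-100-5p: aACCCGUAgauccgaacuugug
The promoters of EREG (chr4:74364895-74365144, plus strand) and HBEGF (chr5:140346604-140346853, minus strand) are the 250 bases before the start in RefSeq GRCh38.p14, 5′ to 3′ on the gene's strand, and capitals mark the letters TGACG, the core of the cAMP response element.
EREG: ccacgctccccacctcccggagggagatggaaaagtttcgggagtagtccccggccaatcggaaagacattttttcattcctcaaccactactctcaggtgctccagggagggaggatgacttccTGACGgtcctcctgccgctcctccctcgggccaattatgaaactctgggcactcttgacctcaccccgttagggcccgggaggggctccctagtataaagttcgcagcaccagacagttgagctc
HBEGF: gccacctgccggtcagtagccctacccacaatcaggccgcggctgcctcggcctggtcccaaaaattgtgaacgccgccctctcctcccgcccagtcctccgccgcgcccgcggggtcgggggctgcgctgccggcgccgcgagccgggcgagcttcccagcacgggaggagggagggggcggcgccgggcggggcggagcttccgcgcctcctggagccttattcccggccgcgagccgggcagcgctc

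Promoter windows of 300 bases, 250 before and 50 after the start, were searched on both strands for 3 motifs: TGANTCA (AP-1), TGACG (the cAMP response element core) and CCGGAAG (ETS). The RefSeq table held 11 windows for 9 of the 10 genes. The EREG window held TGACG at 1 place, which begins 125 bases before the start, and no AP-1 or ETS letters. The HBEGF and ERRFI1 windows held none of the 3. TGACG was also found in the windows of EPGN (2), AREG (2) and in 1 of 2 TGFA windows, against 24.6% of all 35116 windows. AP-1 letters, in 7.71% of all windows, occurred in the second of 2 EGFR windows and in that of ERBB2, and ETS letters, in 10.3% of all windows, occurred in that of ERBB2 alone among the members. EPGN, EREG, AREG and BTC are successive protein-coding genes on chromosome 4. Of the 3 of these with a probeset of their own, EREG was kept and EPGN and BTC were not. The EPGN window had a GC content of 37.7% against 57.7% for EREG and a median of 58.7% over all windows.

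The labels were checked on the induced gene and on marker genes. MIR100 had a log2 signal of 18.18 in induced and 6.56 in control SUM159 cells, and of 17.29 in induced and 8.11 in control MDA-MB-231 cells. The hormone receptor genes ESR1 and PGR lay between 2.98 and 3.68 on the 4 arrays, below the cutoff. Markers of both kinds were present. Among epithelial markers the keratin genes KRT8 (11.84 to 13.37), KRT18 (10.31 to 11.85) and KRT7 (10.03 to 12.13) were bright on all arrays, KRT19 read 4.96 and 4.92 in SUM159 and 9.52 and 9.69 in MDA-MB-231 (induced and control), and the cadherin gene CDH1 was at 3.77 to 4.03. The epithelial gene EPCAM read 4.55 and 4.86 in SUM159 and 6.16 and 6.11 in MDA-MB-231 (induced and control). Among mesenchymal-like markers VIM lay between 15.20 and 16.23. The cadherin gene CDH2 read 13.00 and 12.93 in SUM159 and 4.45 and 4.54 in MDA-MB-231. In SUM159, 2 of 5 mesenchymal-like markers were past 1.5-fold higher with miR-100 induced, CD44 (0.89) and AXL (0.65), with a list median of 0.47. In MDA-MB-231 none was, and the median was 0.09. Over all kept genes 3.95% passed upward in SUM159 and 1.69% in MDA-MB-231. ZEB1, of the same list, was lower in SUM159 (-0.27) and stood at 0.36 in MDA-MB-231. The part of these markers in the results was not tested. The leukocyte gene PTPRC (3.59 to 3.87) and the endothelial gene VWF (3.64 to 3.73) were below the cutoff on every array. The endothelial gene PECAM1 read 3.32 and 2.93 in SUM159 and 4.04 and 4.24 in MDA-MB-231 (induced and control), the last 2 just above it. CD68, a lysosomal gene of macrophages that epithelial lines also express, read 11.12 in induced and 10.50 in control SUM159 cells, against 13.12 in induced and 13.13 in control MDA-MB-231 cells, and CD3E (4.16 to 4.56) was the other of the 2 kept among 7 blood and endothelial markers; the part of CD68 in the results was not tested. Among probesets below the cutoff, induced minus control differences had an SD, from the median absolute deviation, of 0.193 (SUM159) and 0.178 (MDA-MB-231).

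EGFR varied by 0.48 log2 units over the 4 arrays, the least of the kept members. Its log2 signal was 13.46 in induced and 12.98 in control SUM159 cells, and 13.41 in induced and 13.28 in control MDA-MB-231 cells. The lowest was control SUM159 and the highest induced SUM159, so the lines overlapped. Levels of different genes are not set against each other here, because each probeset has its own brightness.

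Epiregulin transcripts were high in SUM159. EREG had a log2 signal of 11.37 in induced and 9.67 in control SUM159 cells, and of 5.72 in induced and 5.66 in control MDA-MB-231 cells. Both SUM159 arrays lay far above both MDA-MB-231 arrays, by 5.65 log2 units in induced and 4.01 in control cells (16.1-fold in control cells). These are bulk cultures, in which more cells with the transcript and more transcript per cell cannot be told apart.

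HBEGF and TGFA had the opposite pattern. HBEGF stood at 7.54 in induced and 6.55 in control SUM159 cells, against 10.89 in induced and 11.02 in control MDA-MB-231 cells. SUM159 minus MDA-MB-231 was -3.35 in induced and -4.47 in control cells, and in control cells HBEGF was 22.2-fold higher in MDA-MB-231. TGFA stood at 5.26 in induced and 4.85 in control SUM159 cells, against 7.84 in induced and 7.54 in control MDA-MB-231 cells. Its control levels were 6.45-fold higher in MDA-MB-231, and the lines did not overlap.

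The ligand of the other receptors, NRG1, differed less. Its brighter probeset read 7.0 in induced and 7.11 in control SUM159 cells, against 7.70 in induced and 8.03 in control MDA-MB-231 cells. Both MDA-MB-231 arrays were the higher ones. A second NRG1 probeset, nearer the cutoff, read 4.4 in induced and 4.19 in control SUM159 cells, against 4.38 in induced and 4.49 in control MDA-MB-231 cells, and there the lines overlapped.

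Betacellulin and epigen were not seen above the cutoff as means. BTC lay at 3.86 in induced and 4.13 in control SUM159 cells, against 3.85 in induced and 3.68 in control MDA-MB-231 cells. EPGN lay at 3.11 in induced and 3.49 in control SUM159 cells, against 3.12 in induced and 3.08 in control MDA-MB-231 cells. A change of such a transcript would be hard to see on these arrays.

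The inhibitor gene ERRFI1 stood at 13.93 in induced and 13.35 in control SUM159 cells, against 15.30 in induced and 14.96 in control MDA-MB-231 cells. Both MDA-MB-231 arrays were above both SUM159 arrays, with SUM159 minus MDA-MB-231 at -1.37 in induced and -1.61 in control cells. Within each line the induced array was the higher one.

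**Figure D1:**
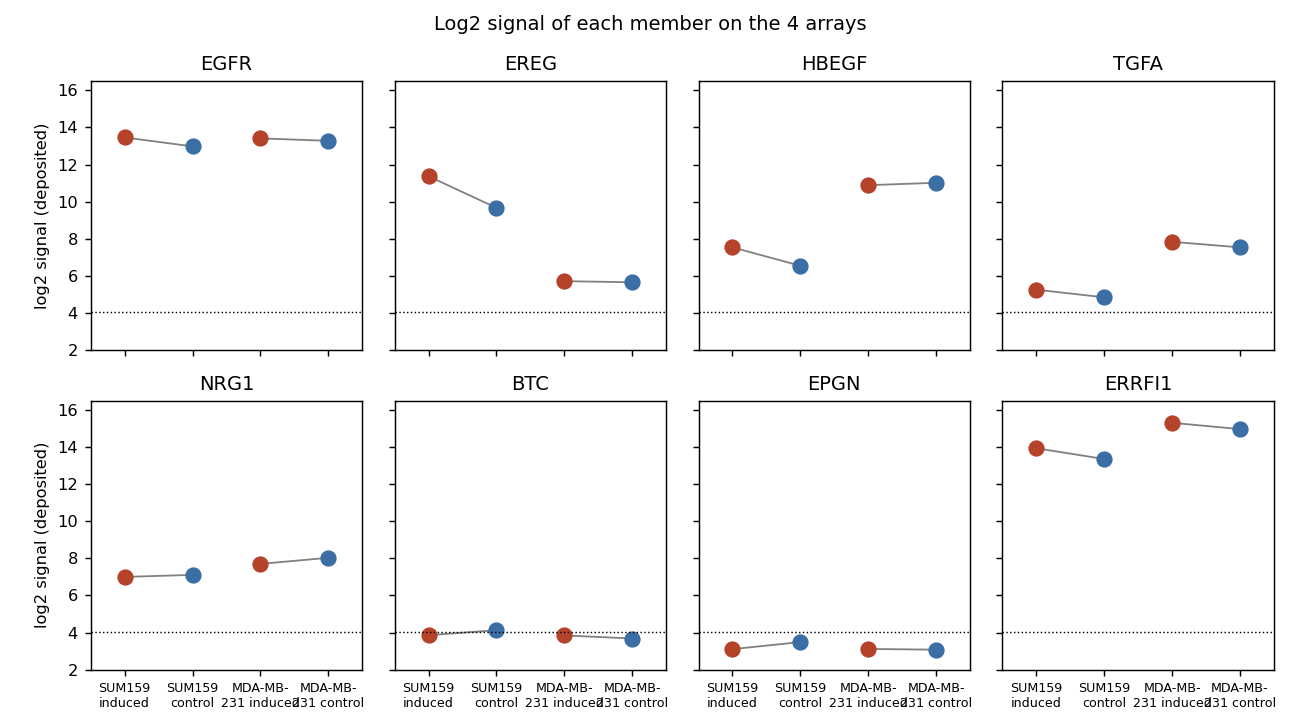
Log2 signal as deposited (vertical axis) of the 8 genes with a probeset of their own, on the induced (red) and control (blue) array of each line, 1 array per point; the dotted line is the signal cutoff of 4.035. EREG is high in SUM159, HBEGF and TGFA are high in MDA-MB-231, EGFR spans 0.48 over the 4 arrays, and BTC and EPGN lie near or below the cutoff.

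The difference between the lines was tested with limma across all 14418 kept genes, with state as a block and the p-values adjusted by Benjamini-Hochberg. The residual of this fit, with 1 degree of freedom, is how far the 2 states disagree, so its p-values do not measure a spread of separate cultures. EREG was higher in SUM159 by 4.83 ± 0.45 log2 units (SE, 2 arrays per line), with a limma adjusted p of 0.00600. Lower in SUM159 were HBEGF, with a difference of -3.91 ± 0.32 (limma adjusted p = 0.00481), and TGFA, with one of -2.635 ± 0.118 (limma adjusted p = 0.00238). ERRFI1 was also lower, at -1.49 ± 0.13 (limma adjusted p = 0.00547), and so was NRG1, at -0.81 ± 0.13 (limma adjusted p = 0.0168). The NRG1 call was lost when its 2 probesets were averaged (-0.475, limma adjusted p = 0.0613).

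EGFR did not pass, at -0.125 ± 0.147 (limma adjusted p = 0.544), which does not show that the lines have the same level. Thus 1 member was higher and 4 were lower in SUM159, where 20.8% of all kept genes were called higher and 23.8% lower, so that a call alone is common between these lines. The sizes stood further out. At or past 4-fold in control cells was EREG upward, with 3.3% of kept genes, and HBEGF and TGFA downward, with 4.55%. An absolute control difference as large as that of HBEGF was reached by 1.35% of kept genes, as large as that of EREG by 1.77%, and as large as that of TGFA by 4.02%.

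**Figure D2:**
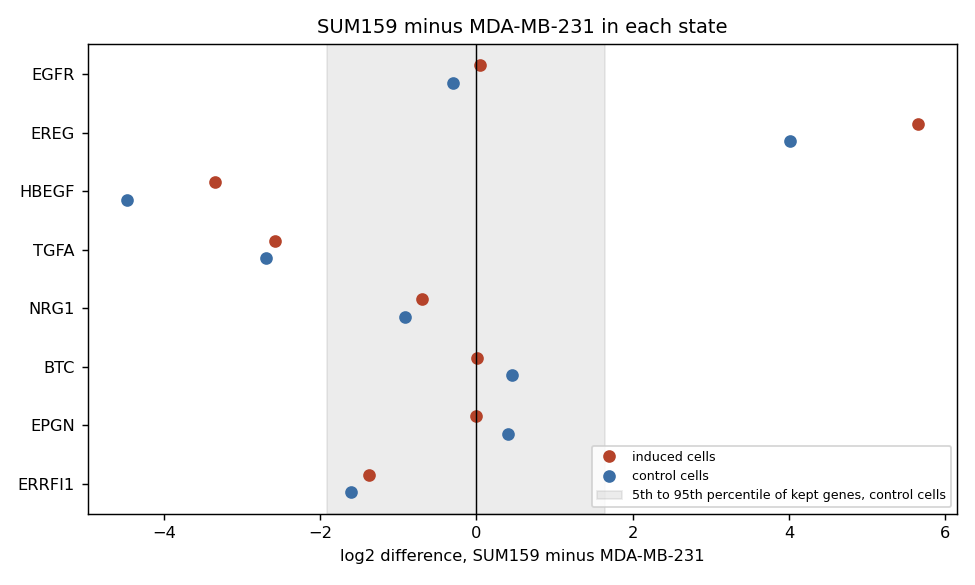
Log2 difference, SUM159 minus MDA-MB-231 (horizontal axis), of each gene in induced (red) and control (blue) cells, with the band that holds the 5th to 95th percentile of kept genes in control cells, -1.91 to 1.64. EREG lies to the right of the band and HBEGF and TGFA to its left in both states.

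With miR-100 induced, EREG and HBEGF were higher in SUM159, where both passed 1.5-fold. In MDA-MB-231 both were within 0.13 of their control levels. In SUM159 the induced array exceeded the control array by 1.70 log2 units for EREG (3.25-fold) and by 0.99 for HBEGF (1.99-fold). These were the 2 members that reached 1.5-fold, a log2 difference of 0.585, both higher, while 3.95% of kept genes passed upward and 3.0% downward. With each array centred on its median, 799 genes passed upward and 316 downward instead of 570 and 432, so the split of directions depends on the scaling. There was 1 array per state, so no test within a line was possible.

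ERRFI1 lay just under the threshold in SUM159, at 0.58, and passed it only after centring, which adds 0.07 to every gene. EGFR was higher by 0.48 and TGFA by 0.41, and NRG1 was at -0.11. Of the 6 kept members 5 were thus above 0, with a median of 0.53 against 0.00 over all kept genes. Without the signal filter, 5 of 8 members were above 0 and 3 below, with a median of 0.445. The dim BTC and EPGN stood at -0.27 and -0.38. The share of all kept genes above 0 in SUM159 was not counted. An absolute difference at least as large was found for 0.187% of kept genes in the case of EREG, 1.39% for HBEGF, 7.29% for ERRFI1, 11.6% for EGFR and 15.8% for TGFA.

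In MDA-MB-231 no member was past 1.5-fold, where 1.69% of kept genes passed upward and 0.784% downward. ERRFI1 was higher by 0.34, TGFA by 0.30, EGFR by 0.13 and EREG by 0.06. HBEGF was at -0.13 and NRG1 at -0.33. The median of the 6 was 0.095, against 0.01 over all kept genes. Differences as large as that of ERRFI1 were found for 15.1% of kept genes, and as large as that of NRG1 for 16.0%.

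**Figure D3:**
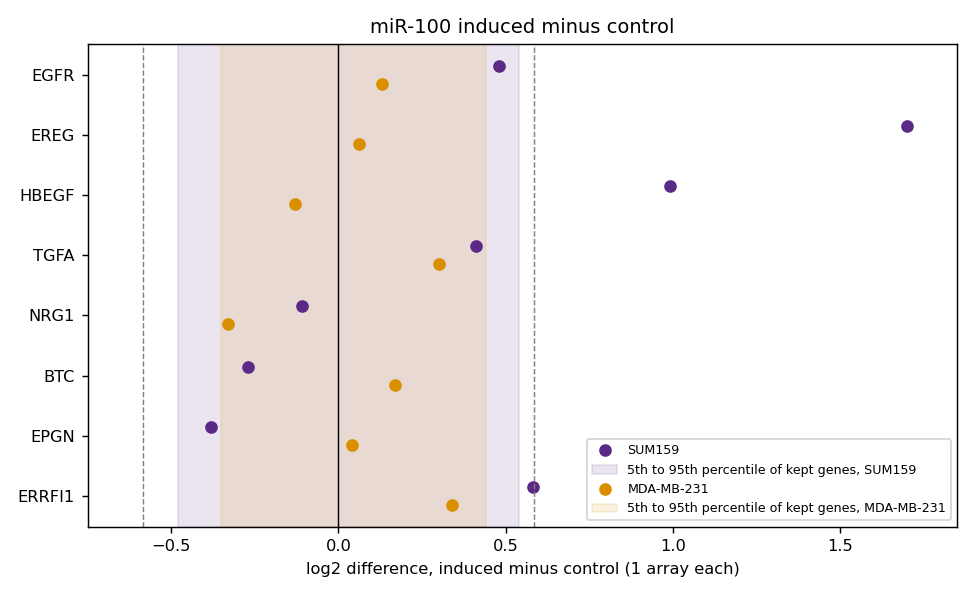
Log2 difference, induced minus control (horizontal axis), of each gene in SUM159 (purple) and MDA-MB-231 (orange), 1 array per state, with bands for the 5th to 95th percentile of kept genes and dashed lines at 1.5-fold. EREG (1.70) and HBEGF (0.99) lie past the right dashed line in SUM159, and no point of MDA-MB-231 passes either line.

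Over both lines, limma with cell line as a block called 0 of 14418 genes (0.0%) at an adjusted p of 0.05. An unadjusted limma p under 0.05 was found for 556 genes (3.86%). The residual of this fit, with 1 degree of freedom, is how far the 2 lines differ in their response. MIR100 itself, higher by 11.62 (SUM159) and 9.18 (MDA-MB-231), was not called, so a missing call does not show a lack of response. The mean difference was 0.88 ± 0.45 (SE) for EREG and 0.43 ± 0.32 for HBEGF, whose responses differed between the lines by 1.64 and 1.12. It was 0.46 ± 0.13 for ERRFI1 and 0.355 ± 0.118 for TGFA, both higher in both lines, as were 25.2% of kept genes. EGFR stood at 0.305 ± 0.147, also higher in both lines, and NRG1 at -0.22 ± 0.13, lower in both, as were 23.7% of kept genes. Each of the 6 had a limma adjusted p of 0.918. No array is left to test the difference of the responses, which is therefore given as a value alone.

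The other receptors and ligands were low. ERBB3, the partner receptor that binds neuregulins, lay at 4.24 in induced and 4.26 in control SUM159 cells, against 4.87 in induced and 5.00 in control MDA-MB-231 cells. ERBB4 lay below the cutoff as a mean, at 3.63 to 4.0 on the 4 arrays. The ligand genes EGF, NRG2, NRG3 and NRG4 lay between 3.33 and 4.78, and none of the 2 that were kept (EGF and NRG2) was past 1.5-fold in either line.

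Of 11 kept genes that release or traffic the ligands, 1 was past 1.5-fold higher with miR-100 induced in SUM159, where 3.95% of all kept genes were, and none in MDA-MB-231. The list's medians were 0.10 and 0.02. Between the lines limma called 1 of the 11 higher and 5 lower in SUM159. Over all kept genes it called 20.8% higher and 23.8% lower. The gene past 1.5-fold with miR-100 induced in SUM159 was ADAM9, a membrane protease gene. It read 14.01 in induced and 13.05 in control SUM159 cells, and 14.35 in induced and 13.99 in control MDA-MB-231 cells. ADAM17, the main sheddase of EREG, HBEGF and TGFA, was higher by 0.10 (SUM159) and 0.09 (MDA-MB-231), and ADAM10 by 0.22 and 0.11. RHBDF2, whose product iRhom2 escorts ADAM17, stood at 0.37 and 0.00. Lower in SUM159 were CNIH4 (-0.52), BACE1 (-0.32), TIMP3 (-0.31) and FRMD8 (-0.03), the rest of the list being above 0. In MDA-MB-231 these stood at 0.08, -0.28, -0.09 and 0.02.

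Of the transducer genes, 3 were past 1.5-fold with miR-100 induced, all lower and all in SUM159. Over all kept genes, 3.0% passed downward and 3.95% upward in SUM159, against 0.784% and 1.69% in MDA-MB-231. Among 10 adaptor and RAS exchange genes, SOS2, a RAS exchange factor gene, and EPS8 were past 1.5-fold lower in SUM159, at -0.71 each, and none was past it in MDA-MB-231, where SHC1 was at -0.47. Of 11 RAS to ERK genes 6 had a probeset of their own, and none of these was past 1.5-fold. ARAF stood at 0.01 (SUM159) and -0.52 (MDA-MB-231). Of 5 kept PI3K and AKT genes, PIK3R1, the regulatory subunit gene of PI3K, was past 1.5-fold lower in SUM159 at -0.81, and it stood at 0.38 in MDA-MB-231.

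With miR-100 induced, 3.95% of all kept genes passed 1.5-fold upward in SUM159 and 1.69% in MDA-MB-231. Among 17 kept genes listed for receptor down-regulation, 1 was past 1.5-fold higher in each line. In SUM159 this was ZFP36L1 (1.04), which encodes an mRNA decay factor and not an endocytic protein, and in MDA-MB-231 it was the phosphatase gene PTPN2 (0.59). EPS15, an endocytic adaptor gene, stood at 0.57 (SUM159) and 0.13 (MDA-MB-231). The ubiquitin ligase gene CBL, which marks EGFR for degradation, was at -0.08 and -0.04, and LRIG1, a membrane inhibitor of the receptors, at 0.06 and -0.01.

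Of 20 kept transcripts that respond to ERK in many cells, 11 were past 1.5-fold higher and 0 past it lower with miR-100 induced in SUM159, where 3.95% of all kept genes were higher and 3.0% lower. The other 9 did not reach 1.5-fold, SPRY2 (-0.39), ETV5 (-0.30), IL11 (-0.08) and SPRED2 (-0.02) lying below 0. The median was 0.65. In MDA-MB-231, 0 were past it higher and 1 lower, and the median was 0.005. EGR1, an immediate early factor gene, stood at 11.57 in induced and 9.21 in control SUM159 cells, and DUSP5, an ERK phosphatase gene, at 11.39 in induced and 9.21 in control SUM159 cells. PHLDA1 was higher by 1.60. In MDA-MB-231 the largest differences were those of LIF (-0.80), EGR1 (0.57) and ETV5 (-0.54). The list was drawn with earlier results of these data known, some of its genes among them, so its count is not independent evidence, and limma over both lines called none of its genes.

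**Figure D4:**
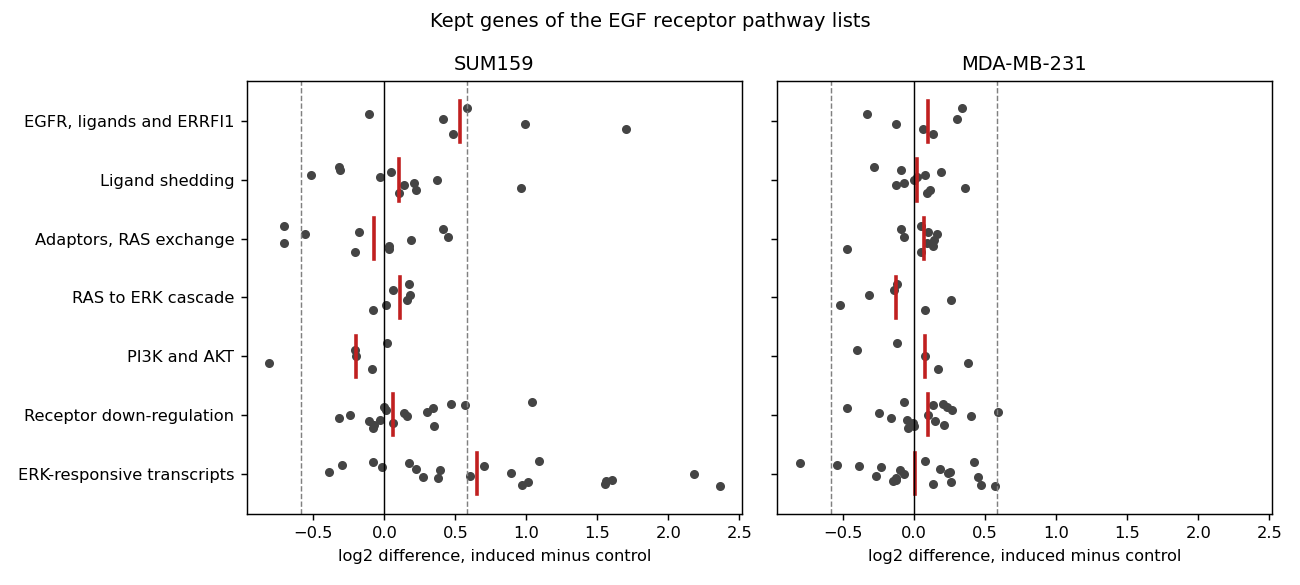
Log2 difference, induced minus control (horizontal axis), of every kept gene among the members and 6 pathway lists in SUM159 (left) and MDA-MB-231 (right), 1 point per gene, with the list's median as a red bar and dashed lines at 1.5-fold. In SUM159 the members (median 0.53) and the ERK-responsive transcripts (median 0.65) lie to the right of the other 5 lists plotted, and in MDA-MB-231 the plotted medians lie between -0.13 and 0.10. The marker lists are not plotted.

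For each of the 6 kept members the 3 most like patterns were found among kept genes, by the root mean square distance between mean-centred log2 signals over the 4 arrays. EREG was nearest to LINC00707 (distance 0.132), the carbonic anhydrase gene CA12 (0.199) and RCN3 (0.226). LINC00707 read 14.56 in induced and 12.60 in control SUM159 cells, against 8.76 in induced and 8.93 in control MDA-MB-231 cells. HBEGF was nearest to the ubiquitin ligase gene NEDD4L (0.0923), E2F7 (0.160) and ENC1 (0.171). The induced minus control difference of NEDD4L was 1.13 (SUM159) and 0.09 (MDA-MB-231).

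TGFA was nearest to RNU6-26P, CYP2S1 and RHOJ, at distances of 0.0433 to 0.0616. ERRFI1 was nearest to NUDCD1 (0.0255), RNU6-7 and the laminin receptor subunit gene ITGA6 (0.0444 each). EGFR, with its small range, was nearest to BAZ1A (0.0122), SAP130 and RBM38, and NRG1 to YIPF3 (0.0112), TBCD and PRPF19. The patterns rest on 4 arrays, and how many kept genes lie at such distances was not counted, so the lists are a description.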

How the data were processed

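The table deposited by the authors gives log2 signals of probesets on 4 Affymetrix arrays, made with Affymetrix Expression Console and Transcriptome Analysis Console, per the submitters' processing notes. Not given in the sources used here were versions and normalization, and the log base is read from the range of 1.54 to 19.86. Array medians were 4.00 to 4.07, so no further scaling was applied. Of 70523 probesets, 23781 named 1 gene symbol, 1543 several and 45199 none; 21497 of 21545 gene IDs matched RefSeq GRCh38.p14, which changed 0 symbols. The brightest single-symbol probeset stood for a gene, and genes at or above 4.035 on average were kept.

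Differences of 2 arrays have no test. limma 3.58.1 (R 4.3.3, lmFit and eBayes, two-sided, Benjamini-Hochberg over all kept genes) was fitted with line or state as a block. It was also run on simulated data in which both lines shifted alike, so that run does not cover lines that respond differently. The number of arrays limits the precision. The labels do not say that arrays came from separate cultures. The members, lists and tests were chosen with earlier results of these data known. Named genes are the members, MIR100, and genes picked by a rule, not all of which are printed. The rule took up to 3 genes per list and line with the largest absolute difference and the 3 nearest patterns per kept member. ADAM17, ADAM10, TIMP3, FRMD8, CBL, LRIG1, ERBB4, NRG3 and NRG4 were named after their values were seen. So were SPRY2, IL11, SPRED2, KRT7, CDH2 and the low marker genes. Alternatives were quantile normalization, centring, the mean over probesets, other signal cutoffs, a 2-fold threshold, an intensity trend and no block.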

Additional observations from a re-analysis of the deposited data

Results flagged for a closer look

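By the brightest probeset of each gene, HBEGF was the one kept member whose induced minus control difference had opposite signs in the lines. The values were 0.99 (SUM159) and -0.13 (MDA-MB-231). The difference between these responses was not tested, since each rests on 1 array per state, and the MDA-MB-231 value is smaller than the spread of 0.178 among dim probesets of that line.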

How the results depend on the processing

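Of 144 values of single members under the alternatives, 143 kept their direction and their side of the threshold or moved by less than the spread among dim probesets. The other, NRG1 between the lines, lost its call, at -0.475 with the mean over its probesets. Many of these values could not move. A signal cutoff leaves a difference within a line as it is, and so does the mean over probesets for a gene with 1 probeset. Values over both lines had no call to lose. The tally therefore says little about robustness. At 2-fold instead of 1.5-fold, 1 member (EREG) was higher in SUM159 in place of 2. Over all kept genes, 105 were then higher and 84 lower in SUM159, and 15 higher and 6 lower in MDA-MB-231. With the cutoff at the 75th percentile, 69 genes in place of 113 were lower in MDA-MB-231. Of the genes past 1.5-fold in SUM159, 56.9% were higher as deposited, 71.7% after centring and 47.8% after quantile normalization. limma over both lines called 0 genes under each alternative run. Leaving out an array was not possible, since a group has 1. Signal near the cutoff limits BTC, EPGN and the second NRG1 probeset.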
